A study of Mus musculus with 42 samples.

Results

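Glucocorticoid-responsive genes and metallothioneins were examined as a list of 10 genes, namely Nr3c1, Hsd11b1, Fkbp5, Tsc22d3, Sgk1, Zbtb16, Cdkn1a, Mt1, Mt2 and Lcn2. The members were chosen by name: every array probe whose annotated gene was one of the 10 was taken, whatever its values. Zbtb16 was not analysed here, because no probe was matched to it by name. The other 9 genes were read by 18 of the 34891 probes that carry a gene symbol, and they made up 9 of the 21186 named genes. Nr3c1 had 4 probes, Fkbp5 and Tsc22d3 had 3 each, Sgk1 and Mt1 had 2 each, and the remaining genes had 1 each.

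Glucocorticoids are adrenal steroids that enter cells and bind the glucocorticoid receptor, a transcription factor encoded by Nr3c1. The receptor then moves to the nucleus and raises or lowers the transcription of target genes, among them Fkbp5, whose product lowers the receptor's affinity for hormone, Tsc22d3, which encodes the anti-inflammatory protein GILZ, and Sgk1, a kinase that regulates ion transport. Tissue exposure also depends on Hsd11b1, the enzyme that regenerates active hormone from its inactive form. Metallothioneins are small cysteine-rich proteins that bind zinc and copper, and their genes respond to metals, to glucocorticoids and to inflammatory cytokines. Cdkn1a encodes p21, an inhibitor of cyclin-dependent kinases, and Lcn2 encodes lipocalin 2, an acute-phase protein abundant in neutrophils.

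RNA was measured on 42 single-colour Agilent arrays, with 3 mice in each of 7 groups and with aorta and skeletal muscle as the 2 tissues. Group G was healthy male C57BL/6 mice. Group A was male KK/Ay mice, a strain that becomes diabetic spontaneously. Group C, the diabetic macroangiopathy model, was KK/Ay mice that were also fed a diet rich in fat and drank water with L-NAME, which blocks nitric oxide synthase. Groups B, D, E and F were mice of that same model given a drug by gavage: the herbal SHENQI compound (B), its yangyinyiqi component (D), its huoxue component (E) or rosiglitazone (F), an agonist of the nuclear receptor PPARγ. Groups G, A and C received saline by gavage. All groups but G were KK/Ay, so strain and diabetes cannot be told apart in any comparison with group G. Groups B, D, E and F were each compared with the same 6 arrays of group C, and groups A and C with the same 6 arrays of group G, so comparisons within each set share their control samples.

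Levels are given as log2 of the normalized intensity, averaged over a gene's probes, and a difference of 1 on this scale is a 2-fold change. Between 53.8% and 77.6% of the named probes were well above background on an array. The tissue labels matched their markers for the most part. The summed intensity of 8 skeletal muscle genes was 19.90 to 20.22 on the muscle arrays, and that of 6 smooth muscle genes was 13.00 to 18.01 on the aorta arrays against 11.95 to 13.64 on the muscle arrays. The aorta samples also held other tissue: their skeletal muscle sum ranged from 11.80 to 19.27 and their white adipocyte sum from 15.24 to 18.35. The brown adipocyte marker Ucp1 was at 14.98 to 17.51 on the aorta arrays. On healthy aorta array 1 the smooth muscle sum was 13.00, the lowest of the aorta arrays, and its neutrophil sum over 8 markers was 17.93, the highest. Healthy muscle array 3 had a neutrophil sum of 16.81, against 9.40 to 12.60 on the other muscle arrays. The comparisons with group G are also given without these 2 arrays, a choice made after seeing the data. They were picked as the healthy array of each tissue with the highest Lcn2, a member of the list. They also held the highest healthy Mt1, Mt2 and Fkbp5 of their tissue, so leaving them out takes away the top of those ranges. Calls kept or gained without them are therefore no separate support for a difference. In whole tissue, fewer cells of a type and less RNA per cell cannot be told apart.

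The probes are 60-base DNA oligonucleotides. The 3 below are shown as examples of what was read: 1 of the 2 Mt1 probes, 1 of the 3 Fkbp5 probes and the only Lcn2 probe. They are printed from the deposited array files in lower case and in the sense of the transcript. The Mt1 probe lies at chr8:96704011-96704070 on the plus strand, the Fkbp5 probe at chr17:28574995-28575054 on the minus strand, and the Lcn2 probe within chr2:32241037-32241281 on the minus strand, a span of 245 bases for 60 letters, all on mouse build mm9.

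Mt1 probe A_51_P294979: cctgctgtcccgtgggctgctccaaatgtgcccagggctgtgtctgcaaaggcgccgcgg
Fkbp5 probe A_52_P481493: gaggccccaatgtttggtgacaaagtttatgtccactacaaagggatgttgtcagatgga
Lcn2 probe A_51_P510156: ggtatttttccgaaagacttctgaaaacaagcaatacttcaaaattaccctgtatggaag

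Mt1 and Mt2 are neighbouring genes, and their promoters are shown because their levels moved together across the arrays. The 250 bases before each annotated start are from RefSeq, mouse build GRCm38.p6, plus strand, at chr8:94178839-94179088 for Mt1 and chr8:94172368-94172617 for Mt2. Capitals mark the core of the metal response element, the sequence recognised by the zinc-sensing factor MTF-1, searched as TGCACNC and TGCGCNC on both strands.

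Mt1 promoter: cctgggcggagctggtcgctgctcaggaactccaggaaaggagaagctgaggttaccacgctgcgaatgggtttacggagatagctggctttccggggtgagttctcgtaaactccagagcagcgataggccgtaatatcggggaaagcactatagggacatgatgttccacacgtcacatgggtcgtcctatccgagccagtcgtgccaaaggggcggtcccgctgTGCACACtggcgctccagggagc
Mt2 promoter: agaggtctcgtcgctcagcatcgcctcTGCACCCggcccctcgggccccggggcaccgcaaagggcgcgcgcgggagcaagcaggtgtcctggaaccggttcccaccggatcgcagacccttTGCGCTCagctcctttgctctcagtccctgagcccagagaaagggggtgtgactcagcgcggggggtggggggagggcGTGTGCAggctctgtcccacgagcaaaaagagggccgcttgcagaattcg

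In the 300-base window that also takes the first 50 bases of the transcript, Mt1 held 3 such cores and Mt2 held 4. Of 32851 promoters of this length, 25.7% held at least 1 core, 1.97% at least 3 and 0.517% at least 4. RefSeq promoters were matched for 8 of the 10 genes, with 16 starts among them. The full palindromic glucocorticoid response element, searched as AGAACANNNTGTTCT, was found in 3 of the 32851 promoters (0.00913%), and 1 of these belonged to Sgk1. It lay at chr10:21993701-21993715, 189 bases before the start, and it reads as follows, with the whole matched site in capitals.

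Sgk1 site: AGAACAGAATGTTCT

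The single arm AGAACA, which overlaps the full element, was found in 19.0% of all promoters, in 3 of the 6 Sgk1 windows and in 1 of the 3 Tsc22d3 windows. A match is a description of the letters in the window only.

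**Figure D1:**
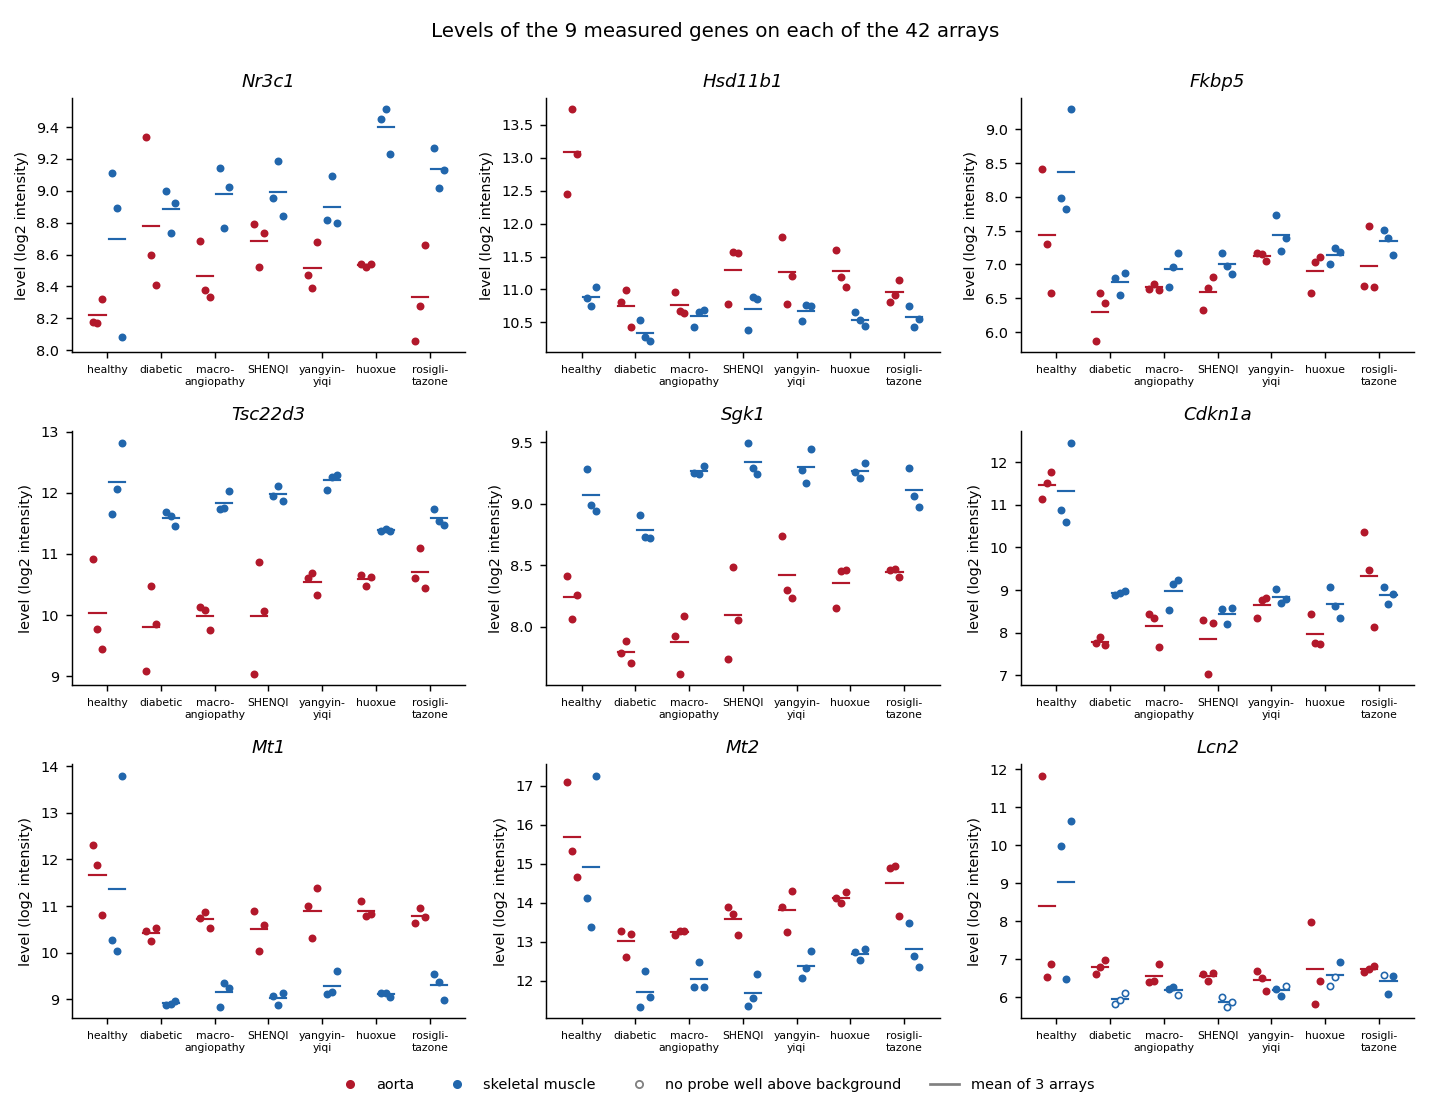
Level of each of the 9 measured genes on each of the 42 arrays, as log2 intensity (vertical axis, its own scale for each gene), by group (horizontal axis) and tissue (colour). Points are single arrays, open points are arrays on which no probe of the gene was well above background, and lines are means of 3 arrays. Cdkn1a stands at 10.60 or more on every healthy array and at 10.36 or less on every KK/Ay array.

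The first comparison asked how the list differed between spontaneous diabetic mice (A) and healthy mice (G). Cdkn1a, Mt2, Hsd11b1 and Fkbp5 were lower in group A over both tissues, by 8.18-fold, 7.58-fold, 2.71-fold and 2.61-fold. Mt1 and Lcn2 were lower in the means but did not pass the test, and Nr3c1, the receptor itself, was the only member with a higher mean. In all, 4 of the 9 genes were called at an adjusted p under 0.05, against 4.5% of the 14808 genes tested, and the 4 were all lower, against 2.22% of genes called lower. The median log2 difference over the 9 genes was -1.44, and over all genes it was 0.03. In 6 of the 9 genes every diabetic array was below every healthy array of the same tissue, in both tissues, against 3.06% of genes. The fit takes the aorta and muscle arrays of a group as separate samples. Without healthy aorta array 1 and healthy muscle array 3, 5 members were called, the same 4 and Mt1, among 805 of 14942 genes. Within a single tissue, 2 members were called in aorta (2.4% of genes) and 1 in muscle (1.54%). The summed levels of other cell markers also differed between A and G without overlap. The 4 red cell markers were at 17.72 to 18.62 in diabetic aorta against 15.97 to 17.58 in healthy aorta, and at 14.32 to 14.80 against 15.28 to 15.81 in muscle. In aorta the 5 endothelium markers were at 11.45 to 11.96 against 10.17 to 11.44. In muscle the 6 macrophage markers were at 11.90 to 12.16 against 12.19 to 13.70, and the 6 white adipocyte markers at 13.09 to 13.91 against 15.00 to 16.35. Their part in the changes of the 9 genes was not tested.

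Cdkn1a, the inhibitor of the cell cycle, had the smallest p of the 9 genes. In aorta its levels were 11.13, 11.51 and 11.77 on the healthy arrays and 7.75, 7.90 and 7.70 on the diabetic arrays. In muscle they were 10.88, 10.60 and 12.46 on the healthy arrays and 8.88, 8.92 and 8.99 on the diabetic arrays. All 18 KK/Ay arrays of either tissue lay below all 3 healthy arrays, with a highest value of 10.36 in aorta, on rosiglitazone array 1, and 9.23 in muscle. The difference between A and G was -3.03 (SE 0.32, 95% interval -3.74 to -2.33, limma adjusted p = 0.00036), rank 32 of all genes. It was -3.68 in aorta (SE 0.39, adjusted p = 0.00147) and -2.38 in muscle (SE 0.39, adjusted p = 0.0136), and the difference between the tissues did not pass (-1.30, adjusted p = 0.679). Without the 2 healthy arrays the Cdkn1a difference was -2.83 over both tissues (adjusted p = 0.00165), -3.85 in aorta and -1.81 in muscle (adjusted p = 0.000747), and the difference between the tissues then passed (-2.04, adjusted p = 0.0101). The muscle call was lost when any of the 3 diabetic muscle arrays was left out (adjusted p 0.0605 to 0.0711).

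Hsd11b1, the hormone-regenerating enzyme, was read at 12.44, 13.73 and 13.06 in healthy aorta and at 10.81, 10.999 and 10.43 in diabetic aorta. In muscle the healthy arrays stood at 10.87, 10.75 and 11.04 and the diabetic arrays at 10.53, 10.28 and 10.22, so the groups did not overlap in either tissue, although the gap in muscle was small. The fall was 5.03-fold in aorta (-2.33, SE 0.29, adjusted p = 0.00249), while the muscle value of -0.54 (SE 0.29) did not pass (adjusted p = 0.45). The difference between the tissues was -1.79 (SE 0.40) and also did not pass over all genes (adjusted p = 0.279). Without the 2 healthy arrays it was -2.19 and passed (adjusted p = 0.0316), and Hsd11b1 over both tissues was at -1.56 (adjusted p = 0.0434). Over both tissues the adjusted p was 0.0294, and the call was lost without healthy aorta array 3, without any diabetic aorta array or without diabetic muscle array 3 (highest adjusted p 0.0749). White adipocytes express Hsd11b1 strongly, and the summed level of their 6 markers was 16.46 to 18.35 in healthy aorta and 17.08 to 17.35 in diabetic aorta, which overlapped, and did not overlap in muscle (given above). Other marker sums did differ in aorta (given above). The part of any cell type in the fall of Hsd11b1 was not tested.

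Fkbp5, the receptor's co-chaperone, stood at 8.41, 7.30 and 6.58 in healthy aorta and at 5.87, 6.58 and 6.43 in diabetic aorta, where the closest arrays met at 6.58. In muscle the healthy arrays were at 7.99, 7.83 and 9.29 and the diabetic arrays at 6.80, 6.54 and 6.88, which did not overlap. All 3 probes of Fkbp5 were lower in group A in both tissues, with differences of -0.93 to -1.73. The fall over both tissues was -1.38 (SE 0.32, adjusted p = 0.0349). This call was lost without healthy muscle array 1 or 3 or without any of the 6 diabetic arrays (highest adjusted p 0.0843), and neither tissue passed alone (adjusted p = 0.233 in aorta and 0.141 in muscle). Without the 2 healthy arrays Fkbp5 was at -0.91 over both tissues (adjusted p = 0.0284), and muscle passed alone (-1.17, adjusted p = 0.0498).

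The metallothioneins were high on the healthy arrays, with a wide spread. Mt2 was read at 17.08, 15.33 and 14.66 in healthy aorta and at 13.29, 12.61 and 13.21 in diabetic aorta. In muscle it was at 14.11, 13.37 and 17.26 in healthy mice and at 11.34, 12.25 and 11.59 in diabetic mice. The groups did not overlap in either tissue, and the fall was -2.92 (SE 0.60, adjusted p = 0.0195).

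The highest Mt2 values were on healthy aorta array 1 and healthy muscle array 3, the arrays with the highest neutrophil sums. Without these 2 arrays the Mt2 difference was -1.99, with a smaller SE of 0.24 (adjusted p = 0.0017), because the top of the healthy range was left out. The call was lost without diabetic aorta array 2, diabetic muscle array 1 or diabetic muscle array 3 (adjusted p 0.0523 to 0.0549).

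Mt1 was at 12.31, 11.89 and 10.80 in healthy aorta and at 10.48, 10.26 and 10.53 in diabetic aorta. In muscle it was at 10.28, 10.04 and 13.80 in healthy mice and at 8.88, 8.91 and 8.97 in diabetic mice. The groups did not overlap, yet the difference of -1.85 (SE 0.57) did not pass (adjusted p = 0.0867), and healthy muscle array 3 lay far above the other 2. Without the 2 healthy arrays named above it was -1.08 with a smaller spread, and it passed (adjusted p = 0.0119).

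Lcn2 was set by few arrays. It reached 11.84 on healthy aorta array 1, against 6.52 and 6.88 on the other healthy aorta arrays and 6.62 to 6.99 in diabetic aorta. In muscle it was at 9.97 and 10.65 on healthy arrays 1 and 3, at 6.48 on healthy array 2, and not well above background on any of the 3 diabetic arrays. Its means in muscle were 5.96 in A and 9.03 in G, as read 8.44-fold lower in group A. The floor set for levels at background did not change the mean of group A. The value is therefore the plain fold of the means and not a lower bound. It takes no account of the spread between arrays, and the difference did not pass (limma adjusted p = 0.344). The 2 arrays that carried most of it were those with neutrophil sums of 17.93 and 16.81; on healthy aorta array 1 all 8 neutrophil markers were above background, and the acute-phase gene Saa3 was at 15.86 there against 5.95 and 6.53 on the other healthy aorta arrays. Healthy muscle array 1, with Lcn2 at 9.97, had a neutrophil sum of 12.60 and Saa3 at 6.48. The part of neutrophils in the result was not tested. Without both arrays the Lcn2 difference over both tissues was -1.09 (adjusted p = 0.358), against -2.35 with them (adjusted p = 0.164).

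Nr3c1 and Tsc22d3 did not pass between A and G, and Sgk1 passed only on its detected probe. As a mean of its probes, Nr3c1 was at 8.18, 8.17 and 8.32 in healthy aorta and at 9.34, 8.60 and 8.41 in diabetic aorta, without overlap, and the groups overlapped in muscle. By probe, only A_51_P355693 did not overlap in aorta, while A_52_P138090, A_52_P254174 and A_52_P63106 did. The Nr3c1 difference over both tissues was 0.37 (SE 0.20, adjusted p = 0.301). The mean of Tsc22d3 overlapped between the groups in both tissues, but its probes disagreed in muscle: A_52_P600518 differed by -1.26 and A_51_P235821 by -0.52, both without overlap, and A_51_P235816 by 0.00. Sgk1 was lower by 0.37 (SE 0.11, adjusted p = 0.0775), but the mean included a probe that was above background on 0 of 42 arrays. Its bright probe alone gave -0.81 and passed (adjusted p = 0.00523).

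The wider list of other glucocorticoid targets held 27 genes, of which 25 were tested here. In A against G 5 of them were called, all lower, and the median log2 difference was -0.80, against 0.03 over all genes. Lpin1, a phosphatidate phosphatase, was at -1.31 (SE 0.27, adjusted p = 0.0197), the glutamine synthetase gene Glul at -1.31 (SE 0.31, adjusted p = 0.0367), and the transcription factor Klf15 at -0.85 (SE 0.18, adjusted p = 0.0209). In muscle 4 were called lower, against 0.735% of all genes, with Cebpd at -2.71 (adjusted p = 0.00541) and Arrdc2 at -2.55 (adjusted p = 3.67e-05), and in aorta 0 were called (4 at an unadjusted p under 0.05). Among 14 receptor chaperones and steroid enzymes, the heat shock protein Hspa8 was higher (0.61, SE 0.15, adjusted p = 0.0396). None of the 8 receptor coregulators and none of the 10 tested genes of zinc and metallothionein regulation was called (0 and 1 at an unadjusted p under 0.05), with the metal-sensing factor Mtf1 at -0.21 (adjusted p = 0.302). Of 15 targets of p53, 0 were called and 6 were lower at an unadjusted p under 0.05, against 9.31% of all genes, with Gadd45a at -1.35 (adjusted p = 0.058). Of 14 acute-phase genes tested, the ceruloplasmin gene Cp was the 1 called, at -1.55 (adjusted p = 0.0441).

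**Figure D2:**
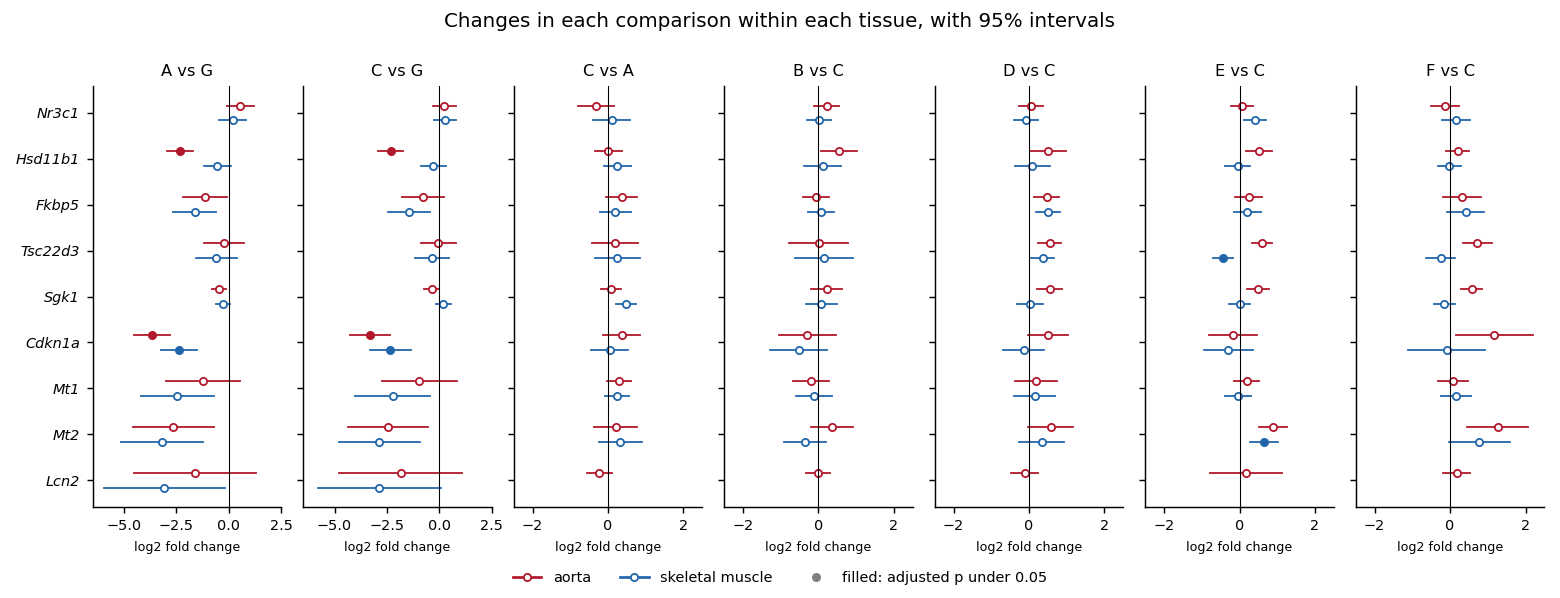
Log2 fold change of each gene (rows) in each of the 7 comparisons (panels), within aorta (red) and within skeletal muscle (blue), with 95% intervals of the limma fit. Filled points have an adjusted p under 0.05, the axis of the first 2 panels is wider than that of the others, and Lcn2 in muscle is left out where no set passed the filter. Cdkn1a was called in both tissues against group G, at -3.68 and -2.38 for A and at -3.32 and -2.34 for C.

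The diabetic macroangiopathy mice (C) were compared with the same healthy arrays. Cdkn1a and Mt2 were lower in group C, by 7.11-fold and 6.3-fold, and these 2 of 9 genes were called, against 5.17% of the 15742 genes tested and 2.22% called lower. Hsd11b1 was lower in aorta by 5-fold but just missed the threshold over both tissues. Fkbp5, Mt1 and Lcn2 had lower means and did not pass. The median over the 9 genes was -1.31, against 0.03 over all genes. Within a tissue, 2 members were called in aorta (6.45% of genes) and 1 in muscle (1.92%).

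In group C aorta Cdkn1a was at 8.45, 8.35 and 7.65 and in muscle at 8.54, 9.15 and 9.23, below every healthy array. The difference was -2.83 (SE 0.33, adjusted p = 0.000763), with -3.32 in aorta (adjusted p = 0.00402) and -2.34 in muscle (adjusted p = 0.0232). The muscle call was lost without healthy muscle array 1 or without any macroangiopathy muscle array (highest adjusted p 0.129). Without the 2 healthy arrays Cdkn1a was at -2.63 over both tissues (adjusted p = 0.00284) and at -1.77 in muscle (adjusted p = 0.0113). Hsd11b1 stood at 10.96, 10.67 and 10.64 in aorta, below all healthy arrays, with a fall of -2.32 (SE 0.27, adjusted p = 0.0023). In muscle it was at 10.43, 10.66 and 10.69, close to the lowest healthy value of 10.75. Over both tissues it was at -1.31 (adjusted p = 0.0526), and the difference between tissues was -2.03 (SE 0.38, adjusted p = 0.0853). Without the 2 healthy arrays Hsd11b1 was at -1.43 over both tissues (adjusted p = 0.0611), and the difference between tissues was -2.42 and passed (adjusted p = 0.0131). Fkbp5, at -1.10 with all arrays (adjusted p = 0.0704), was then at -0.63 (adjusted p = 0.0662), and in muscle it went from -1.43 (adjusted p = 0.169) to -0.97 and passed (adjusted p = 0.0406). Several marker sums of group C did not overlap with group G either. In muscle these were the white adipocyte sum, at 12.46 to 14.44, and the macrophage sum, at 11.91 to 12.12 against 12.19 to 13.70. In aorta the red cell sum was at 18.44 to 18.67, and the smooth muscle sum at 17.33 to 17.78 against 13.00 to 16.69. The sum of 6 mesothelium markers in aorta was at 8.35 to 8.67 against 8.78 to 9.23. Their part in the changes of the 9 genes was not tested.

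Mt2 was at 13.17, 13.27 and 13.28 in aorta and at 11.84, 12.48 and 11.85 in muscle of group C, below the healthy arrays in both. Its fall was -2.65 (SE 0.59, adjusted p = 0.0267). The call was lost without any single macroangiopathy array (adjusted p 0.0533 to 0.0657), and with slide as a random block (adjusted p = 0.0651). Without healthy aorta array 1 and healthy muscle array 3 it was -1.72 and passed (adjusted p = 0.00142), and Mt1, at -1.59 with them (adjusted p = 0.124), was then at -0.82 and passed (adjusted p = 0.0421). Of 26 other glucocorticoid targets tested, 5 were called lower and 1 higher, with Lpin1 at -1.71 (adjusted p = 0.0183), Glul at -1.40 (adjusted p = 0.00931) and Trim63, a muscle ubiquitin ligase, at -1.79 (adjusted p = 0.0343). The DNA damage gene Gadd45a was also lower (-1.19, adjusted p = 0.0341).

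The slides that carried the arrays were not spread evenly over groups. Slide 1 held 1 diabetic and 2 healthy aorta arrays beside 1 of another group, and there the diabetic array differed from the healthy mean by -3.69 for Cdkn1a, -2.58 for Mt2, -1.94 for Hsd11b1 and -1.63 for Fkbp5, with no test. Without the arrays of slides 1, 3 and 11, a choice made after seeing the data that left 1 healthy array in each tissue, the muscle one being healthy muscle array 3, Cdkn1a was at -3.61 in A against G (adjusted p = 0.000425) and Mt2 at -4.07 (adjusted p = 0.0278), with Mt2 at -2.42 in aorta and at -5.53 against that 1 muscle array. Hsd11b1 was then at -1.79 over both tissues and lost its call (adjusted p = 0.0835). Its difference between the tissues was -2.32 in A against G and -2.52 in C against G. With 1 healthy array in each tissue, that fit of separate means could not measure the spread between healthy mice. No test of the difference between the tissues is therefore read from it. Within a tissue, arrays of group C shared no slide with those of groups G, A, E or F, and in aorta none with those of group B. Group A muscle shared none with group G muscle. Slide and group cannot be told apart in these comparisons.

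The diet and L-NAME were examined by comparing group C with group A. None of the 9 genes was called, and neither was any of the 15724 genes tested (0%), while 805 genes (5.12%) and 3 members passed at an unadjusted p under 0.05. Among those 805 genes 62.7% were higher, and 50.9% of 744 with the scanner's processed signal. The 3 members, all with higher means in group C, were Sgk1 (0.28, SE 0.10), Mt1 (0.26, SE 0.10) and Fkbp5 (0.28, SE 0.13), each with an adjusted p of at least 0.958. The detected probe of Sgk1 alone gave 0.56 (adjusted p = 0.312), with 0.35 in aorta and 0.78 in muscle, above group A without overlap in both. As the mean of both probes, Sgk1 stood apart in muscle, at 9.25, 9.24 and 9.30 in group C and at 8.91, 8.73 and 8.72 in group A, without overlap, but the sign of this mean over both tissues turned with the processed signal (-0.01). Of the 26 other glucocorticoid targets tested 19 had a higher mean, 6 of them at an unadjusted p under 0.05, against 3.21% of all genes, and 0 were called. Cebpd had the smallest p (0.55, SE 0.09, adjusted p = 0.363).

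The SHENQI compound (B) was then set against the macroangiopathy model (C). None of the 9 genes and none of the 15665 genes was called (0%), and at an unadjusted p under 0.05 there were 0 members against 2.71% of genes. Mt2 was at 13.90, 13.71 and 13.18 in aorta of group B. Its difference from group C was 0.36 in aorta and -0.36 in muscle, both with overlap, which gave 0.00 over both tissues (95% interval -0.44 to 0.44). Fkbp5 had a difference of 0.00 (interval -0.24 to 0.24), Tsc22d3 of 0.07 (interval -0.45 to 0.59) and Cdkn1a of -0.41 (interval -0.92 to 0.10). Hsd11b1 in aorta was higher at an unadjusted p only, at 10.78, 11.57 and 11.55 in group B (0.54, SE 0.22, adjusted p = 0.981), and it overlapped with group C.

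In the yangyinyiqi group (D) the 3 direct receptor targets had higher means than in group C. None of the 9 genes and none of the 15893 genes was called (0%), whereas at an unadjusted p under 0.05 there were 4 members, against 3.41% of genes, all 4 higher, against 2.21%. Fkbp5 and Tsc22d3 ranked 2 and 3 of all 15893 genes by p, with an adjusted p of 0.999 for both. The share higher among all genes at that threshold was 64.9%, and 44.5% with the processed signal.

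Fkbp5 was at 7.17, 7.16 and 7.05 in aorta of group D and at 6.64, 6.72 and 6.63 in group C. In muscle it was at 7.73, 7.20 and 7.39 against 6.67, 6.96 and 7.17. The difference was 0.48 (SE 0.10, 95% interval 0.26 to 0.70). The closest arrays in muscle were apart by less than their spread. Group D shared slide 6 with group C in aorta and slide 8 in muscle, where the differences within the slide were 0.51 and 0.27 for Fkbp5, and 0.61 and 0.18 for Tsc22d3, with 1 array on one side and no test.

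Tsc22d3, encoding GILZ, was at 10.60, 10.69 and 10.33 in aorta of group D and at 10.13, 10.08 and 9.76 in group C. In muscle it was at 12.05, 12.27 and 12.29 against 11.73, 11.76 and 12.02, and the difference over both tissues was 0.46 (SE 0.10, 95% interval 0.25 to 0.67). As means of their probes, these 2 genes were above group C without overlap in both tissues, which held for 0.252% of the genes tested. Single probes did so less often. Fkbp5 probe A_51_P383689 overlapped in both tissues. Fkbp5 probe A_52_P481493 and Tsc22d3 probe A_51_P235816 overlapped in muscle. Their remaining probes did not overlap in either tissue. Sgk1 in aorta was at 8.74, 8.30 and 8.23 against 7.92, 7.62 and 8.09, without overlap (0.55, SE 0.15, adjusted p = 1), and in muscle it overlapped. Mt2 had a difference of 0.45 (SE 0.18, adjusted p = 0.999) and overlapped in both tissues. Of the 26 other glucocorticoid targets tested, 20 had a higher mean (median 0.16, against 0.01 over all genes), 6 of them at an unadjusted p under 0.05, and 0 were called.

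In the huoxue group (E) Mt2 was higher and Tsc22d3 was lower in skeletal muscle, and these 2 of the 8 genes tested there were called, against 11.9% of 13422 genes, 4.38% called higher and 7.55% called lower. Over both tissues 0 of 9 genes and 0 of 15727 genes (0%) were called, and 2 members passed at an unadjusted p under 0.05, against 14.3% of genes, of which 48.7% were higher, and 58.9% with the processed signal. All 3 muscle arrays of group E were on slide 11, which held no array of group C, so slide and treatment cannot be told apart in this tissue. On those arrays 57.3%, 54.4% and 53.8% of the named probes were well above background, against 64.1%, 66.2% and 60.9% in group C muscle. The part of this lower detection in the calls was not tested. In a fit of all 42 arrays with a term for slides 1, 3 and 11, 18 genes and 0 of the 9 were called in muscle.

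Mt2 was at 14.12, 13.98 and 14.26 in aorta of group E and at 13.17, 13.27 and 13.28 in group C. In muscle it was at 12.74, 12.53 and 12.81 against 11.84, 12.48 and 11.85, where the lowest array of E lay just above the highest of C. The difference in muscle was 0.64 (SE 0.17, adjusted p = 0.0325), in aorta 0.88 (SE 0.17, adjusted p = 0.535), and over both tissues 0.76 (SE 0.12, adjusted p = 0.167, rank 4 of 15727). Without macroangiopathy muscle array 2 it was 0.87 over both tissues and passed (adjusted p = 0.00869). Mt1, its neighbour, was at 11.11, 10.78 and 10.82 in aorta and at 9.14, 9.14 and 9.04 in muscle of group E, overlapping with group C in both.

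Tsc22d3 went in opposite directions in the tissues of group E. In aorta it was at 10.66, 10.48 and 10.62, above all of group C (0.60, SE 0.12, adjusted p = 0.611), and in muscle at 11.38, 11.40 and 11.38, below all of group C (-0.45, SE 0.12, adjusted p = 0.0376). The difference between the tissues was 1.04 (SE 0.17, 95% interval 0.67 to 1.42, adjusted p = 0.011). The muscle call was lost in 7 of the 12 fits that left out 1 array (highest adjusted p 0.123), whereas the difference between tissues passed in all 12. The probes disagreed in muscle. Probe A_51_P235816 was lower in group E by 1.29 and A_51_P235821 by 0.49, while A_52_P600518 was higher by 0.43, with levels of 11.80, 11.74 and 11.68 in group E against 11.18, 11.21 and 11.53 in group C. In aorta all 3 probes were higher in group E. Rosiglitazone muscle, with 1 array on slide 11 and 2 on slide 3, showed the same order of probes, at -0.96, -0.29 and 0.49 against group C.

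**Figure D3:**
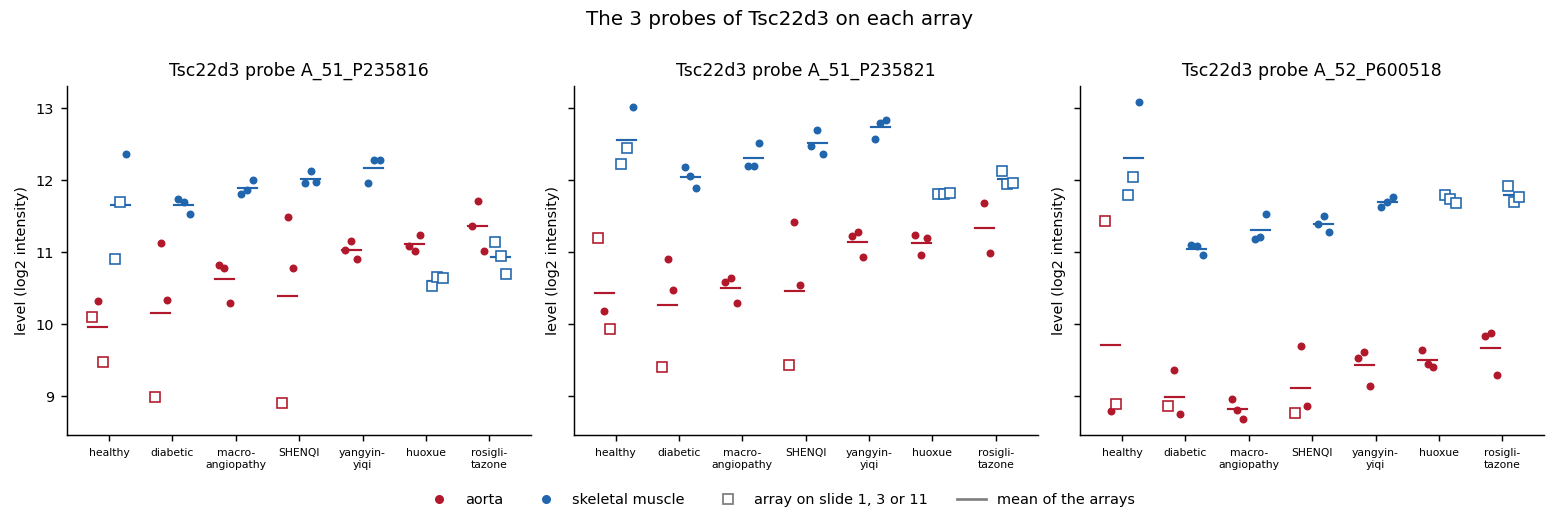
Level of each of the 3 Tsc22d3 probes (panels) on each array, as log2 intensity, by group and tissue; open squares are arrays on slides 1, 3 and 11, and lines are means. In muscle of the huoxue and rosiglitazone groups, all of whose arrays are open squares, the left probe lies below the macroangiopathy group and the right probe above it.

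Nr3c1 in muscle of group E was at 9.45, 9.51 and 9.23 and above all arrays of group C (0.42, SE 0.13, adjusted p = 0.0645), on the same slide. In aorta Hsd11b1 (0.52) and Sgk1 (0.48) were above group C without overlap and did not pass (adjusted p = 0.916 and 0.9). Among the other genes in muscle, the heat shock genes Hspa8 (-1.37, adjusted p = 0.00141) and Dnaja1 (-0.99, adjusted p = 0.00325), the zinc transporter genes Slc30a5 (-0.77, adjusted p = 0.000493) and Slc39a14 (-0.65, adjusted p = 0.0144), the ubiquitin ligase gene Fbxo32 (-0.74, adjusted p = 0.0148) and Gadd45a (-1.69, adjusted p = 8.69e-05) were lower. Over all genes in muscle 7.55% were called lower and 4.38% higher. These are single genes named from the lists, and they do not describe their families. Slide and treatment cannot be told apart for them either.

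With rosiglitazone (F) all 9 genes had a higher mean over both tissues, and none was called, against 0.00631% of 15845 genes. Within a tissue, 8 of 9 genes had a higher mean in aorta, and 4 of the 8 tested in muscle. No slide held arrays of both F and C in either tissue, so slide and treatment cannot be told apart here. At an unadjusted p under 0.05 there were 2 members, Mt2 and Fkbp5, against 12% of genes. Mt2 was at 14.89, 14.95 and 13.66 in aorta, all above group C, and at 13.49, 12.63 and 12.36 in muscle, and its difference was 1.02 (SE 0.26, 95% interval 0.46 to 1.58, adjusted p = 0.164). Sgk1 in aorta was at 8.46, 8.47 and 8.40 against 7.92, 7.62 and 8.09 (0.57, SE 0.12, adjusted p = 0.172), and Tsc22d3 in aorta at 10.60, 11.10 and 10.44 against 10.13, 10.08 and 9.76 (0.72, SE 0.17, adjusted p = 0.181). Neither overlapped with group C in aorta, and both overlapped with it in muscle. The difference between the tissues was 0.73 for Sgk1 (SE 0.17, adjusted p = 0.075) and 0.98 for Tsc22d3 (SE 0.25, adjusted p = 0.0831). Cdkn1a in aorta ranged from 8.13 to 10.36 in this group, so that its mean difference of 1.17 (SE 0.46) did not pass (adjusted p = 0.364). The neutrophil sum in rosiglitazone aorta was 14.01 to 16.23, against 12.90 to 13.10 in group C, and Lcn2 was at 6.67, 6.74 and 6.81 against 6.41, 6.42 and 6.88.

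SHENQI and its components were thus read against the same arrays of group C, and no direct test between the drug groups was made. The log2 difference from C over both tissues for Mt2 was 0.00 in B (0.36 in aorta and -0.36 in muscle), 0.45 in D, 0.76 in E and 1.02 in F. For Fkbp5 it was 0.00 in B, 0.48 in D, 0.23 in E and 0.36 in F. The order of the groups by level rarely separated neighbours: of 6 neighbouring pairs of groups per gene and tissue, at most 2 did not overlap, and for Cdkn1a in each tissue and Hsd11b1 in aorta exactly 1 pair did not.

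The levels of the genes also differed between the tissues over all 7 groups. Of the 9 genes 8 were called, against 76.9% of the 16176 genes tested, so that a tissue difference was the rule on these arrays. Mt1 and Mt2 were higher in aorta, by 2.62-fold and 2.61-fold (1.39, SE 0.19, adjusted p = 1.16e-07, and 1.38, SE 0.22, adjusted p = 1.71e-06), and Hsd11b1 by 1.65-fold (0.72, SE 0.09, adjusted p = 2.76e-08), each in 7 of 7 groups. The Mt1 value averages 2 probes of unlike level. In group C, A_51_P294979 was at 13.97 in aorta and 11.61 in muscle, and A_52_P423810 at 7.47 and 6.69. Across the alternatives the Mt1 difference ranged from 1.23 to 2.19, so its near match with Mt2 depends on this averaging. Tsc22d3 was higher in muscle by 3-fold (-1.59, SE 0.13, adjusted p = 1.09e-12), Sgk1 by 1.98-fold (-0.99, SE 0.06, adjusted p = 3.54e-16; its detected probe alone gave -1.67) and Nr3c1 by 1.41-fold (-0.49, SE 0.08, adjusted p = 8.34e-07), again in 7 of 7 groups. Fkbp5 was higher in muscle by 0.43 (SE 0.12, adjusted p = 0.00212), but with its brightest probe alone the value was -0.20 and did not pass (adjusted p = 0.144). Cdkn1a differed by -0.41 (adjusted p = 0.0168), with 2 of 7 groups higher in aorta, and Lcn2 did not pass (0.29, adjusted p = 0.393).

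Across the 42 arrays, after each tissue's mean was subtracted, Mt1 and Mt2 had a Pearson correlation of 0.888. The points share groups, slides and tissue pieces, so the values are descriptive. Without the 6 healthy arrays the value over the other 36 was 0.589. Among 16175 other genes, the 3 most like Mt2 were Mt1, Sik1 (0.847) and Fkbp5 (0.827), and the 3 most like Fkbp5 were the unnamed transcript 6030422H21Rik (0.917), Mt2 and Mt1 (0.814). Without the healthy arrays Fkbp5 and Mt2 stood at 0.463, Fkbp5 and Tsc22d3 at 0.605, and Sgk1 and Tsc22d3 at 0.662. Cdkn1a was most like Tomm22 (0.863), Ptges (0.849) and Sdc4 (0.823), and Hsd11b1 most like Derl1 (0.867). Lcn2 was most like Chi3l3 (0.901), Manf (0.901) and Cd14 (0.883), and with the neutrophil sum it stood at 0.767, or 0.371 without the healthy arrays. Nr3c1 was most like Zfp161 (0.866), Tsc22d3 most like Cep57 (0.811), and Sgk1 had no gene above 0.658 (Cct4).

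**Figure D4:**
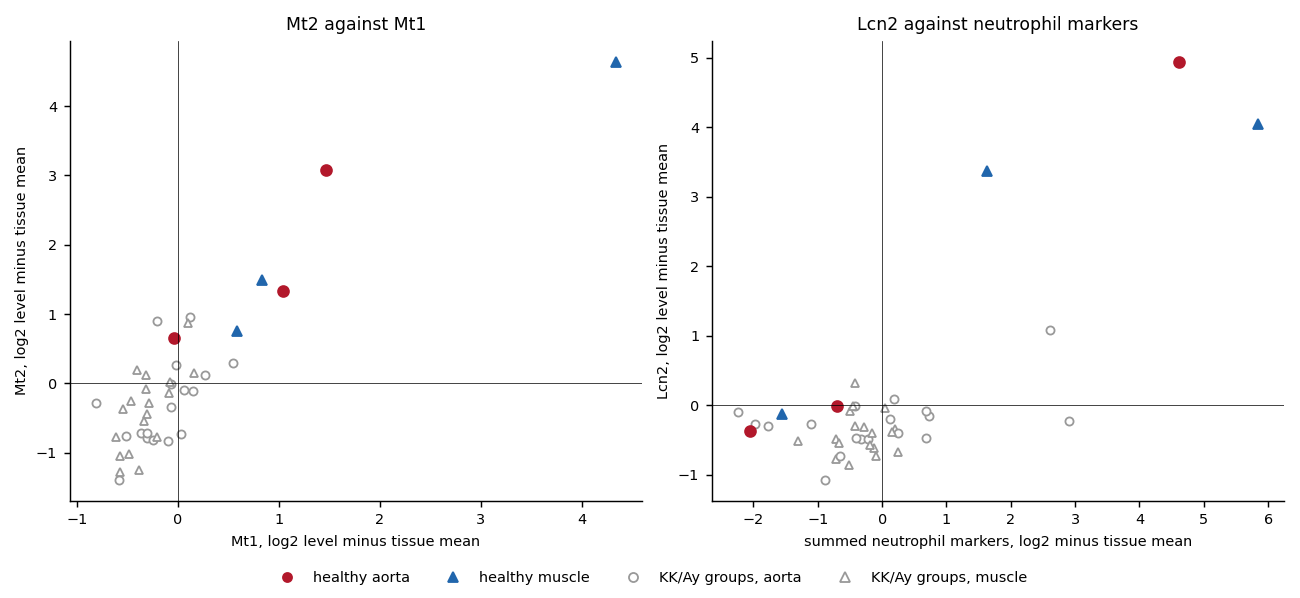
Left, Mt2 against Mt1, and right, Lcn2 against the summed level of 8 neutrophil markers, on each of the 42 arrays, as log2 level minus the mean of its tissue; filled symbols are healthy arrays. The metallothioneins lie along 1 line (Pearson 0.888), with healthy muscle array 3 and healthy aorta array 1 at its upper end, whereas Lcn2 is high on 3 healthy arrays and 1 of these has a neutrophil sum well below the other 2.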

How the data were processed

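Aorta and skeletal muscle RNA of 3 mice in each of 7 groups was labelled with 1 dye and hybridised to 42 mouse arrays, and groups were taken from the sample titles. The deposited scanner files, made by the authors with Agilent Feature Extraction 10.7.3.1, hold a spot's intensity, and 34 of the 42 files lack the mean intensity, so the median spot intensity and its local background were used. A second deposited table holds the authors' own log2 values for the same arrays, with its scale unstated, and it was used only as an alternative. The deposited files also hold flags for spots well above background, saturated or irregular (unit other), and probe names, sequences and positions on build mm9. Irregular spots were set to missing, which left out 1 array for 1 Tsc22d3 probe, and 0 arrays had a saturated spot for a member.

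Intensities were corrected with normexp (offset 0), 1639 control spots were dropped, and values were quantile normalized on the log2 scale and averaged per probe and then per gene symbol (limma 3.58.1, R 4.3.3). Genes were tested if, in 1 or more of the sets compared, all 3 arrays had a probe of the gene well above background. Each comparison was fitted by lmFit and eBayes on the 12 arrays of its 2 groups with tissue as a term, or as 4 means for each tissue and for the difference between tissues, and tissues were compared on all 42 arrays. P-values were adjusted by Benjamini-Hochberg over all genes tested and called under 0.05, beside the unadjusted 0.05 that the study's methods used. Mice of a group were separate animals per the methods, whether the aorta and muscle arrays of 1 number came from 1 mouse was not given in the sources used here, and p-values measure the spread between these arrays. The steps were tested on simulated data. The number of arrays limits the precision.

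All members were described whatever their values. Genes of the other lists were named when called (at most 4 of largest change per list and comparison) or, where none was called, for the smallest p (at most 3). The members and lists were chosen with earlier results of these data known. Where only background was read in a group, a fold is the brighter group's mean over the dimmer group's mean. Each array of the dimmer group is taken at no less than the lowest level among probes above background. For Lcn2 in muscle, A against G, this floor did not change the mean. Summed marker levels are log2 of summed linear intensities. Promoters are from a RefSeq table (GRCm38.p6) and were searched with Python 3.11.15. Alternatives were background subtraction, an offset of 50, the scanner's processed signal scaled to its 75th percentile, the authors' log2 table, no filter, the brightest probe, a fit of all 42 arrays, slide as a random block, a term for slides 1, 3 and 11, the replicate number as a block, and leaving out each array. Leaving out slides 1, 3 and 11, or the healthy array with the highest Lcn2 in each tissue, was added after seeing the data.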

Additional observations from a re-analysis of the deposited data

Results flagged for a closer look

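The change of Tsc22d3 in the huoxue group (E) against the macroangiopathy group (C) differed between the tissues in a test of the difference itself: the log2 fold change in aorta minus that in muscle was 1.04 (SE 0.17, limma adjusted p = 0.011). It was higher in aorta on 3 of 3 arrays and lower in muscle on 3 of 3 arrays, and the 3 probes disagreed in direction in muscle. With the scanner's processed signal the value was 0.90 (adjusted p = 0.0645), and with a term for slides 1, 3 and 11 it was 0.28 (adjusted p = 0.999).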

How the results depend on the processing

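The direction of each called member held in every setting, except that Tsc22d3 in huoxue muscle turned to 0.32 with a term for slides 1, 3 and 11. That term also turned Nr3c1 in E against C, to -0.005 over both tissues and -0.082 in muscle, and the processed signal turned Sgk1 in C against A to -0.01. For single genes, 1915 values kept their side of the threshold, 83 gained a call, 66 lost one and 4 changed sign; the causes were not tested.

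For A against G the 667 genes and 4 members called became 3151 and 7 in a fit of all 42 arrays, and 2757 and 9 with the slide term. For C against G the 814 genes and 2 members became 3518 and 6 in the fit of all arrays, 2108 and 7 with the slide term, and 260 and 1 with slide as a random block, and 1329 genes without the 2 healthy arrays of highest Lcn2. C against A had 1 gene with background subtraction. E against C had 2 genes with an offset of 50, 9 in the fit of all arrays and 3 with the slide term. F against C, with 1 gene, had 25 with an offset of 50, 2 with the processed signal, 8 with the slide term and 0 with the authors' table or the brightest probe. Within tissues, the counts for A against G ranged from 73 to 2241 in aorta and from 69 to 3606 in muscle, for C against G from 86 to 3024 and from 28 to 2724, and for E against C in muscle from 18 to 2176. With the processed signal the median of all genes in A against G in muscle was 0.17, against 0.03.

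Leaving out 1 array at a time, the genes called ranged from 297 to 1051 and the members from 1 to 4 in A against G, and from 293 to 1417 and from 1 to 3 in C against G. They ranged from 0 to 1 and from 0 to 1 in E against C, and from 0 to 4 and 0 to 0 in F against C. Both counts stayed at 0 in C against A, B against C and D against C. Between tissues they ranged from 12313 to 12625 and stayed at 8. The Cdkn1a calls of A and C against G over both tissues held in every setting above.

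Within a tissue, same-numbered arrays of the groups compared did not deviate together throughout: of 42 correlations, 10 were above 0.1 (range -0.543 to 0.598). With the replicate number as a block, A against G had 318 genes and 2 members (Hsd11b1 and Fkbp5 lost their calls), C against G 145 genes and 1 member (Mt2 lost its call), and F against C 0 genes. The calls of Cdkn1a in muscle (A and C against G), of Mt2 and Tsc22d3 in huoxue muscle and of the Tsc22d3 difference between tissues were also lost. That block paired same-numbered arrays of the 2 groups within a tissue and did not link aorta with muscle. Whether the aorta and muscle arrays of 1 number came from 1 mouse was not tested, and no fit of 2 groups allowed for it. Spots near background limit Lcn2 in muscle, and 3 arrays a set limit the precision throughout.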
